A study of Mus musculus with 9 samples.

Results

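The response shared by acetate and ethanol in ATDC5 cells, as defined here, held 230 of 12868 tested genes, 146 of them below and 84 above the control level. A gene belonged to it when the 6 treated libraries together differed from the 3 control libraries at an adjusted p under 0.05, and when acetate and ethanol each lay on the same side of control. Both treatments were set against the same 3 control libraries, so the shared sign is part of the definition, and 62 of the 230 genes passed with each treatment taken singly. The test was limma's, two-sided, with Benjamini-Hochberg adjustment over all 12868 genes, which were those with a mean of at least 1 CPM (counts scaled to library size) over the 9 libraries. The shared response held 1.79% of the tested genes, 1.13% lower and 0.653% higher. In all, 232 genes (1.8%) passed the pooled test, and the other 2 were Adamtsl1 and Snx7, whose acetate values lay on the opposite side of control (0.11 and 0.05 on the log2 scale). The largest falls were in genes of the cartilage matrix, and the largest group of rises was in genes of the interferon response.

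The 9 libraries came from ATDC5, a mouse chondrogenic cell line, in 3 groups of 3 labelled Control, Acetate and Ethanol. By the growth protocol, all cells had DMEM/F-12 medium with serum and antibiotics, to which ascorbate, beta-glycerophosphate and an insulin, transferrin and selenium supplement were added when treatment began, so control and treated cells shared the enriched medium. The sources used here do not give doses, durations or what the control cells received, and the labels' treatment text, on mouse livers and HepG2 cells, was not used. The series asks whether acetate carries part of ethanol's effect on chondrocyte differentiation; since no label ties the replicates to separate cultures, p-values reflect only the scatter among these libraries, which may be technical.

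Chondrocytes build cartilage from fibrils of collagen II, IX and XI and from the proteoglycan aggrecan, under the control of the transcription factor SOX9. In the growth plate they then enlarge, make collagen X and secrete Indian hedgehog, and ATDC5 cells pass through similar steps in culture. Cells oxidise ethanol by way of acetaldehyde to acetate, which can be turned into acetyl-CoA. Interferon response genes are switched on by transcription factors, STAT2 and IRF9 among them, that act through a DNA element called the interferon-stimulated response element.

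The response element is short enough to be seen in the promoters of the interferon genes that rose, and 5 of them are printed here because they show it. Each line gives the 250 bases before the start of the gene from RefSeq (GRCm38.p6), read 5′ to 3′ on the strand of the gene, and capitals mark each match on either strand to the element, searched as TTTC followed by any 2 bases and a second TTTC. The window of Ifit1 lies at chr19:34640639-34640888, plus strand, that of Ifit3 at chr19:34583279-34583528, plus strand, that of Rsad2 at chr12:26456453-26456702, minus strand, that of Cxcl10 at chr5:92348890-92349139, minus strand and that of Igtp at chr11:58199306-58199555, plus strand.
Ifit1: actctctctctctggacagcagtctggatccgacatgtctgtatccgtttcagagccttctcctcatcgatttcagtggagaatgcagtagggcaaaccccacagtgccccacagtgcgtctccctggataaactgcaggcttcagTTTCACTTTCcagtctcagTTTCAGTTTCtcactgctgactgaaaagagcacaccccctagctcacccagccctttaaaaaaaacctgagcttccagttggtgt
Ifit3: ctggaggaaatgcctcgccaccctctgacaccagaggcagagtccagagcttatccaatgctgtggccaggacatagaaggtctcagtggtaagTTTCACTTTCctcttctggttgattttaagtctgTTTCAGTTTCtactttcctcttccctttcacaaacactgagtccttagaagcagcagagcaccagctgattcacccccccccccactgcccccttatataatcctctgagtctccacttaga
Rsad2: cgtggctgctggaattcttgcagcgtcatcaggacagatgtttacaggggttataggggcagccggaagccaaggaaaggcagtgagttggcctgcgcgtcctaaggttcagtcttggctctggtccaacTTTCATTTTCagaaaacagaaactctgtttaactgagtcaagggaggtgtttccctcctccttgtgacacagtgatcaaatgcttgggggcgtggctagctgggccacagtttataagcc
Cxcl10: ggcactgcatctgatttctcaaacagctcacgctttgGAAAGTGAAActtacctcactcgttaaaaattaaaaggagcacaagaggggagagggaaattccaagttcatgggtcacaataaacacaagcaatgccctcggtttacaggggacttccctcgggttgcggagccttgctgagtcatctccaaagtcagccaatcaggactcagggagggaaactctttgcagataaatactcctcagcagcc
Igtp: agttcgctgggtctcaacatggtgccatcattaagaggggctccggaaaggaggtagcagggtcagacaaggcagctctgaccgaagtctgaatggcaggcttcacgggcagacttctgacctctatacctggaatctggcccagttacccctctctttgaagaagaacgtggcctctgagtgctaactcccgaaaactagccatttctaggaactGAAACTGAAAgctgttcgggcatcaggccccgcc
Counted back from the start of the gene, matches began at -104 and -85 in Ifit1, -156 and -122 in Ifit3, -120 in Rsad2, -213 in Cxcl10 and -34 in Igtp. Ifit1 and Ifit1bl2 lie head to head, and their windows overlap and hold the same matches.

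RefSeq's table held promoters for 164 of the 230 shared genes, in 202 windows. Among the shared genes that rose, 13 of 67 windows (19.4%) held this motif, against 3 of 135 windows (2.22%) of those that fell. It was in 2.98% of all 32851 promoter windows in the table and in 2.63% of those of tested genes. Of the rising interferon response genes, 9 of 12 with an entry had a match. Outside that list 4 rising genes had one, namely Gm12250, Ifi207, Irgm2 and Plk2. The core letters of the SOX site, ACAAAG, were in 11.9% of the windows of falling genes and 12.1% of those of tested genes. The core of the hypoxia response element, ACGTG, was in 16.3% of the windows of falling genes and 21.6% of those of tested genes. The CArG box of the serum response factor was in 0 of 67 rising windows and 1 of 135 falling ones. A match is a description of the letters, and promoters of related genes, such as Ifit3 and its near-identical copy Ifit3b, are not independent.

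Levels are given as CPM scaled between libraries by TMM, in the order of replicates 1 to 3, and fold changes are differences of log2(CPM + 1), which understate the change of genes at low levels. Depth was 28.7 to 41.9 M recovered reads per library, so that 1 read was worth 0.0231 to 0.0348 CPM. Acetate replicate 2 stood apart from the other acetate libraries along the GC content of transcripts (Pearson r = 0.81 across 12741 genes, which are not independent), and the pooled fold changes carried part of this trend (r = 0.32, and r = -0.02 without that library). The correlation with GC content was 0.58 for the acetate and -0.06 for the ethanol fold changes, so acetate values and differences between acetate and ethanol carry it too. The medians of the shared genes moved little with it: 0.68 for the rising and -0.84 for the falling genes with the library, 0.67 and -0.83 without it. The number of genes past the threshold moved more. Limma placed 1312 genes in the shared response without acetate replicate 2 (692 higher, 5.38%, and 620 lower, 4.82%), 415 without acetate replicate 1 and 130 without acetate replicate 3. It placed 16, 55 and 43 without control replicate 1, 2 and 3, and 118, 69 and 95 without ethanol replicate 1, 2 and 3. None of the 230 pooled fold changes turned its sign in any of these fits. The genes were chosen by this contrast in the same libraries, so little is read from the kept signs.

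The scatter of the 230 genes by treatment shows the falls reaching further than the rises. Both treatments lowered a gene by at least 1 on the log2 scale in 28 cases, and no gene rose that far in both. The median of the falling genes was -0.76 with acetate and -0.96 with ethanol, and that of the rising genes 0.60 and 0.72, against -0.01 and 0.00 over all tested genes. All 6 treated values lay on one side of all 3 control values in 201 of the 230 genes (9.11% of all tested genes, 4.67% above and 4.44% below control). The genes were chosen by this contrast, so nothing is read from that count, nor from a lack of overlap given below for any shared gene. The genes named by size were taken from those without overlap, and for them separation comes with the choice. The shared genes were nearly all protein coding (213 of 230), and their median GC content of 51.3% was close to the 49.7% of all tested genes. Their median level was lower, 15.1 CPM against 33.8.

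**Figure D1:**
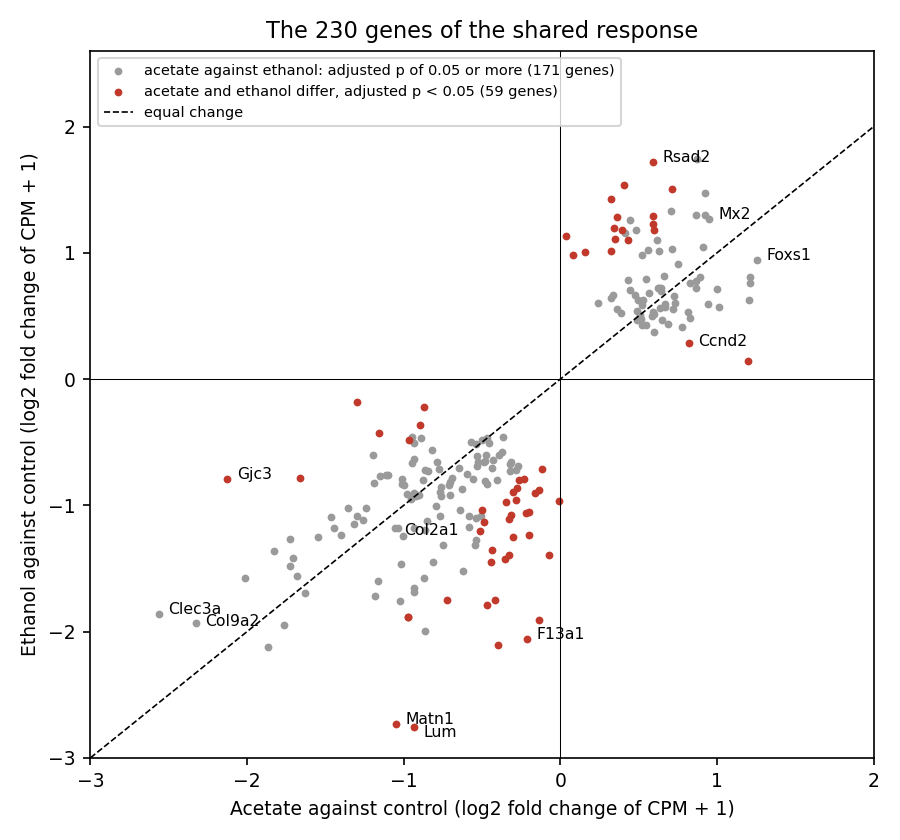
Log2 fold change with acetate (x axis) and with ethanol (y axis), each against control, for the 230 genes of the shared response. Each point is a gene, the dashed line marks equal change, and red points are the 59 genes for which acetate and ethanol differed at an adjusted p under 0.05; both axes share the same controls, so the spread along the line is partly common to them.

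Genes that hold their place whichever library is left out form a smaller set. In each of the 9 fits that leave out 1 library, 16 of the 230 genes passed, and they were chosen here after their values were seen. The 12 that fell were the matrix genes Col9a2, Snorc, Matn1, Matn4, Col9a1, Col10a1 and Comp, the hedgehog ligand gene Ihh, the cytokine-like gene Cytl1, the melanotransferrin gene Meltf, the perilipin gene Plin4 and the mucin gene Muc5b. The 4 that rose were the interferon-inducible genes Rsad2 and Irgm2, the RNA-editing enzyme gene Apobec1 and the chromatin protein gene Hmga1. The other 214 all lost their call without control replicate 1, 17 of them in that fit alone. Of the 49 shared genes that the naming rule gives, 7, 23 and 21 passed without control replicate 1, 2 and 3, 48, 49 and 38 without acetate replicate 1, 2 and 3, and 36, 27 and 33 without ethanol replicate 1, 2 and 3.

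Cartilage matrix genes fell with both treatments. Of 23 tested genes of the list 17 fell and none rose, where 1.13% of all tested genes fell. The median was -1.06 for acetate, -1.24 for ethanol and -1.22 for both together, against -0.02 over all tested genes. In 20 of the 23 all 6 treated libraries lay below all 3 controls, where 4.44% of all tested genes did. In bulk RNA, fewer cells of a type and less RNA per cell cannot be told apart.

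Collagen IX, which coats the collagen II fibril, showed the deepest falls among the fibril collagens. Col9a2 (chr4:121039385-121055322 on GRCm38) stood at 24.8, 18.4 and 22.4 CPM in the control libraries, 4.34, 2.79 and 3.58 with acetate and 6.84, 2.84 and 6.00 with ethanol. Ethanol replicate 1, the highest treated library, lay well under control replicate 2, the lowest control (-2.13 ± 0.22, SE, adjusted p = 0.0039). Its partner chain gene Col9a1 (chr1:24177610-24252684) went from 215, 158 and 189 CPM in control to 62.8, 43.5 and 49.97 with acetate and 88.9, 58.4 and 70.5 with ethanol (-1.60 ± 0.17, adjusted p = 0.0039). The third chain, Col9a3, was lowered as well (-1.66 with acetate, -0.78 with ethanol). Col2a1 itself (chr15:97975602-98004695), the main fibril collagen, read 9738, 7569.6 and 9958 CPM in control, 4413, 4719 and 3906 with acetate and 4379, 3512 and 4132 with ethanol. Its control and treated groups did not overlap, and it fell with both treatments (-1.12 ± 0.13, adjusted p = 0.0057, acetate against ethanol 0.12, 95% interval -0.23 to 0.46). The call of Col2a1 was lost when genes of all levels were tested (adjusted p = 0.13) and without control replicate 1. Collagen XI, which starts the fibril, followed with Col11a1 at -1.13 and Col11a2 at -0.92.

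Further falls in the cartilage matrix list were in genes of other matrix and secreted proteins. Matn4, a matrilin gene, stood at 29.8, 24.7 and 28.6 CPM in control, 6.88, 6.17 and 5.28 with acetate and 11.5, 6.83 and 8.03 with ethanol (-1.79 ± 0.16, adjusted p = 0.0014). Every treated library was under every control, which comes with its choice by size. Clec3a, which codes for a lectin of cartilage, went from 20.8, 17.6 and 22.3 CPM to 3.68, 1.13 and 3.60 with acetate and 5.59, 3.63 and 5.45 with ethanol (-2.21 ± 0.25, adjusted p = 0.0051). Acetate replicate 2 was the lowest of its 6 treated libraries. Snorc, a small proteoglycan gene of chondrocytes, dropped from 9.95, 8.28 and 8.48 CPM to 2.08, 1.83 and 1.27 and 2.07, 0.986 and 0.923 (-1.99 ± 0.17, adjusted p = 0.0014). Ucma, which codes for a secreted cartilage protein, read 12.97, 9.67 and 11.6 CPM in control, 3.02, 2.85 and 2.47 with acetate and 5.31, 2.36 and 3.67 with ethanol (-1.56 ± 0.18). Both Snorc and Ucma were separated between control and treated libraries, which for Ucma, named by size, comes with the choice.

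Acan, the gene of aggrecan (chr7:79053483-79115099), stood at 1169, 866 and 1324 CPM in control, 604, 578 and 582 with acetate and 667, 476 and 625.5 with ethanol. All treated values were under the controls, and the fitted fall was -0.91 with acetate and -0.92 with ethanol (pooled -0.91 ± 0.16, adjusted p = 0.025). Its call was lost with genes of all levels tested (adjusted p = 0.055), without control replicate 1 or 3 and without ethanol replicate 2 or 3. Matn1 and Comp, described here although they were not named by the rule, fell further with ethanol (-2.73 and -1.88) than with acetate (-1.05 and -0.97). The 6 list members outside the shared response were Hapln1, Col27a1, Scrg1, Col24a1, Matn2 and Chad. Hapln1, the link protein gene, had large fitted values (-2.21 with acetate and -1.24 with ethanol) but a wide spread between acetate libraries (359, 81.5 and 265 CPM) and an adjusted p of 0.06. Col24a1 had opposite signs, 0.55 with acetate and -1.38 with ethanol. Without acetate replicate 2 the list count was 20, and with the GC trend removed also 20. Without control replicate 1, 2 and 3 it was 7, 15 and 11.

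**Figure D2:**
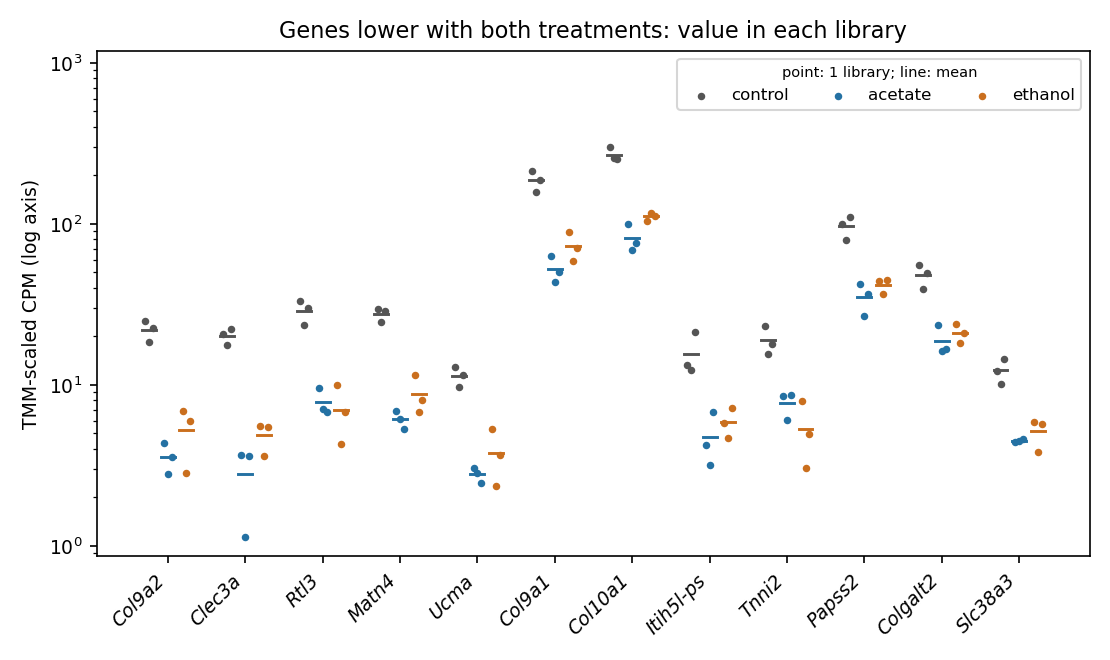
TMM-scaled CPM on a log axis in each of the 9 libraries for the 12 falling genes with the largest smaller fold change of the 2 treatments, taken from shared genes that averaged 5 CPM or more and whose treated and control libraries were separate. Each point is 1 library, in grey for control, blue for acetate and orange for ethanol, with a line at the group mean; by that choice the treated points lie under the control points, and what the plot adds is the distance between acetate and ethanol.

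Genes of hypertrophic chondrocytes formed a smaller group of falls, 6 of 21 tested with no rise (median -0.24), where 1.13% of all tested genes fell. Col10a1 (chr10:34389981-34397085), whose collagen X marks this stage, stood at 300.0, 255 and 253 CPM in control, 99.8, 68.7 and 76.4 with acetate and 105, 117 and 112 with ethanol. Each acetate library lay under each ethanol library, and all 6 lay under control (-1.50 ± 0.13, adjusted p = 0.0014). Ihh, the gene of the ligand Indian hedgehog, read 20.6, 19.5 and 24.1 CPM in control, 10.1, 11.8 and 9.35 with acetate and 5.70, 4.76 and 4.68 with ethanol (-1.43 ± 0.12, adjusted p = 0.0013). Here the acetate libraries sat between control and ethanol, and the treatments differed by 0.92, 95% interval 0.62 to 1.22, adjusted p = 0.008. Ptch1, the hedgehog receptor gene and a direct target of the pathway, fell with both (-0.76 with acetate and -0.93 with ethanol, difference 0.17, 95% interval -0.13 to 0.47), while Gli1, a second target, did not pass (-0.56, adjusted p = 0.073).

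Foxa3 and Foxa2, forkhead factors of late chondrocytes, had log2 fold changes of -1.06 and -1.03. Mmp13, the collagenase of hypertrophic cartilage, went from 1.98, 2.30 and 1.93 CPM to 0.965, 0.291 and 0.569 with acetate and 0.567, 0.433 and 0.761 with ethanol (-0.95 ± 0.14, adjusted p = 0.013). All treated libraries were under control, and acetate differed from ethanol by 0.00, 95% interval -0.36 to 0.37. Runx2, the factor that drives hypertrophy and bone formation, did not pass (-0.16 ± 0.11, adjusted p = 0.54), and its libraries read 341, 327 and 388 CPM in control, 339.9, 277 and 339 with acetate and 297, 301 and 345 with ethanol. Alpl, the mineralising phosphatase, had opposite fitted values (0.12 with acetate, -0.60 with ethanol) and no pooled call (adjusted p = 0.35). None of the 20 tested genes of the osteoblast and mineralisation list was in the shared response by limma, which held 1.79% of all tested genes. So 0 in a list of this size is near the background. At an unadjusted limma p under 0.05 the list held 6 of 20 genes, above the 15.8% of all tested genes. Without acetate replicate 2 the list gave 5 falls, and with the GC trend removed also 5. The count for the hypertrophic list was 9 without acetate replicate 2 and 2, 5 and 4 without control replicate 1, 2 and 3.

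Among the regulators of chondrocyte identity 4 of 21 tested genes fell and none rose (median -0.24), where 1.13% of all tested genes fell. Sox9 (chr11:112782224-112787760) stood at 458, 403 and 486 CPM in control, 316, 281 and 305 with acetate and 321, 286 and 345 with ethanol. Every treated library was under every control, by a smaller amount than for the matrix genes above (-0.54 ± 0.10, adjusted p = 0.04, acetate against ethanol -0.07, 95% interval -0.35 to 0.20). The call of Sox9 was lost with quantile scaling (adjusted p = 0.06), with genes of all levels tested (0.056) and without any 1 library other than acetate replicate 1 or 2. Sox8, a relative of Sox9, went from 11.3, 10.7 and 13.003 CPM to 4.73, 4.86 and 4.44 with acetate and 9.59, 6.76 and 9.14 with ethanol (-0.79 ± 0.12, adjusted p = 0.016). Acetate lowered it further (difference -0.73, 95% interval -1.05 to -0.41, adjusted p = 0.024). The partner factors Sox5 and Sox6 did not pass (-0.55 and 0.03 for Sox5, -0.48 and -0.58 for Sox6). Fgfr3, the receptor that restrains growth plate chondrocytes, read 252, 210.4 and 243 CPM in control, 153, 170.3 and 131 with acetate and 132, 100.1 and 111 with ethanol (-0.84 ± 0.13, adjusted p = 0.015).

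Bmp6, a growth factor gene of the BMP family, stood at 18.9, 16.1 and 18.4 CPM in control, 10.2, 8.35 and 6.86 with acetate and 7.72, 6.59 and 6.58 with ethanol (-1.12 ± 0.13, adjusted p = 0.0051). Of the BMP axis, 2 of 24 tested genes fell and 1 rose, where 1.13% of all tested genes fell and 0.653% rose. Bambi, which codes for a decoy receptor, had -0.53, a call lost with the GC trend removed (adjusted p = 0.097). Smad7, an intracellular inhibitor of TGF-beta and BMP signals, rose from 11.9, 10.9 and 12.95 CPM to 16.7, 20.4 and 20.6 with acetate and 17.1, 19.5 and 23.5 with ethanol (0.67 ± 0.13, adjusted p = 0.036). Its treated libraries all lay above its control libraries. The count of falling regulators was 7 without acetate replicate 2 and 0, 1 and 1 without control replicate 1, 2 and 3, and it ran from 2 to 3 without acetate replicate 3 or any 1 ethanol library.

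Small leucine-rich proteoglycans, which bind collagen fibrils and set their width, gave 4 falls among 12 tested genes (median -0.78), beside 1.13% of all tested genes. Epyc, the epiphycan gene of growth plate cartilage, fell with both treatments (-1.73 and -1.48, pooled adjusted p = 0.0059), from 4.22, 3.40 and 2.87 CPM in control to 0.711, 0.175 and 0.217 and 1.19, 0.289 and 0.461. Dcn, the decorin gene, read 134, 140.4 and 92.03 CPM in control, 79.2, 54.7 and 46.1 with acetate and 44.8, 33.02 and 28.6 with ethanol (-1.39 ± 0.21). Each group was separate from control, and the call of Dcn was lost with the GC trend removed (adjusted p = 0.076). Lum, the lumican gene, stood at 201, 232 and 137 CPM in control, 158, 58.6 and 96.9 with acetate and 37.9, 27.1 and 18.3 with ethanol. Its acetate libraries overlapped control and its ethanol libraries did not, and the pooled value was -1.84 ± 0.32 (adjusted p = 0.028). Prelp fell the least (-0.39 and -0.61, adjusted p = 0.046), and of the 9 fits without 1 library it passed in that without acetate replicate 2 alone. The count for these proteoglycans was 6 without acetate replicate 2, 0, 1 and 2 without control replicate 1, 2 and 3, and 3, 1 and 2 without ethanol replicate 1, 2 and 3. Of the fibrous matrix list, whose genes are not particular to cartilage, 0 of 25 were in the shared response by limma. That is near the background, 1.79% of all tested genes. The median was -0.08 for acetate and -0.42 for ethanol. At an unadjusted limma p under 0.05 the list held 13 of 25 genes, above the 15.8% of all tested genes. Without acetate replicate 2 the list gave 7 falls and 1 rise, and with the GC trend removed 9 falls.

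Enzymes that modify collagen and its partners in the secretory pathway gave 4 falls of 27 tested (median -0.39), beside 1.13% of all tested genes. P3h2 and Crtap belong to the machinery that hydroxylates proline in collagens, and they had log2 fold changes of -0.81 and -0.41, with acetate and ethanol apart by 0.10, 95% interval -0.21 to 0.40 and 0.09, 95% interval -0.12 to 0.30. P4ha1, a collagen prolyl 4-hydroxylase gene, and F13a1, a transglutaminase gene, had acetate values nearer to control (-0.22 and -0.21) than ethanol values (-1.06 and -2.06). F13a1 read 84.6, 80.4 and 74.9 CPM in control, 78.02, 54.9 and 75.8 with acetate and 18.3, 17.6 and 19.5 with ethanol, and its acetate libraries overlapped control. Without acetate replicate 2 the count was 17, with the GC trend removed 15, and without control replicate 1, 2 and 3 it was 0, 1 and 1. Colgalt2, which adds galactose to collagen hydroxylysine and is outside the list, fell from 55.5, 39.4 and 49.3 CPM to 23.6, 16.1 and 16.7 with acetate and 23.98, 18.2 and 21.1 with ethanol (-1.23 ± 0.16, adjusted p = 0.0078).

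Papss2 makes the sulfate donor for the sugar chains of aggrecan. It stood at 100.4, 78.9 and 110.1 CPM in control, 42.02, 26.6 and 36.7 with acetate and 44.2, 36.5 and 44.5 with ethanol (-1.31 ± 0.16, adjusted p = 0.0066). Papss2 was named by size, so its lack of overlap comes with the choice. It was the only gene of 27 tested for sugar-chain synthesis in the shared response, which held 1.79% of all tested genes. At an unadjusted limma p under 0.05 that list held 13 of 27 genes, above the 15.8% of all tested genes. Without acetate replicate 2 the list gave 9 falls and 1 rise, and with the GC trend removed 8 falls and 2 rises. Other falls named by size were the retrotransposon-derived gene Rtl3 (-1.85 ± 0.22), the glutamine transporter gene Slc38a3 (-1.19 ± 0.15), the fast troponin gene Tnni2 (-1.45 ± 0.24) and the pseudogene Itih5l-ps (-1.40 ± 0.23). Rtl3 read 32.95, 23.5 and 29.9 CPM in control, 9.58, 7.04 and 6.75 with acetate and 9.93, 4.30 and 6.74 with ethanol.

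The interferon response list held the largest group of rises. Of 47 tested genes 15 rose and none fell, where 0.653% of all tested genes rose, and 39 were fitted above control with both treatments. The median was 0.32 with acetate, 0.84 with ethanol and 0.59 together, against -0.02 over all tested genes. Taken singly, 2 of the 47 passed with acetate (0.505% of all tested genes rose with acetate) and 27 with ethanol (1.48%). The sum of the 47 levels ran from 5029 to 6721 CPM in control, 6499 to 8501 with acetate and 9238 to 11073 with ethanol.

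Mx2, an antiviral GTPase gene annotated as a polymorphic pseudogene, had the largest rise in the lesser of the treatments among interferon genes. It stood at 146, 172 and 112 CPM in control, 270.0, 319 and 236 with acetate and 355, 373 and 300.4 with ethanol, without overlap (1.11 ± 0.15, adjusted p = 0.011). Cxcl10, the gene of a chemokine that attracts T cells, read 36.7, 34.5 and 26.2 CPM in control, 61.3, 74.03 and 52.1 with acetate and 89.9, 80.4 and 72.9 with ethanol (1.11 ± 0.15, adjusted p = 0.0086). Cxcl11, a chemokine of the same receptor and outside the list, went from 5.50, 5.49 and 3.58 CPM to 8.66, 9.42 and 7.397 and 16.5, 17.7 and 12.5. Ethanol raised Cxcl11 further than acetate did (difference -0.79, 95% interval -1.20 to -0.38, adjusted p = 0.046), and the gene is annotated as a polymorphic pseudogene as well. Igtp, an immunity-related GTPase gene whose promoter is printed above, stood at 88.9, 97.6 and 73.3 CPM in control, 131, 186 and 116 with acetate and 181, 199.6 and 153 with ethanol (0.87 ± 0.17, adjusted p = 0.038). For Mx2, Cxcl10, Cxcl11 and Igtp every treated library exceeded every control. These genes are among those named by size, for which separation comes with the choice. Mx1 rose from 37.4, 40.5 and 26.03 CPM to 57.97, 65.1 and 47.2 with acetate and 90.6, 101 and 72.6 with ethanol (1.02 ± 0.17).

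Rsad2 and Ifit1, whose promoters are also printed, show the gap between treatments. Rsad2, the viperin gene, read 81.3, 92.3 and 67.5 CPM in control, 131, 112 and 118 with acetate and 269, 276 and 249 with ethanol. The acetate libraries lay above control and the ethanol libraries far above both, and the difference between treatments was -1.13, 95% interval -1.43 to -0.83, adjusted p = 0.0036. Ifit1 went from 133, 145 and 113 CPM to 174, 144 and 171 with acetate and 352, 369 and 333 with ethanol, where acetate replicate 2 lay inside the control range. Parp14, a poly-ADP-ribose polymerase gene, was counted although acetate left it near control (0.04 against 1.14 with ethanol). The factor genes Stat2 (0.64 and 0.72) and Irf9 (0.33 and 0.67) rose. Of the 15 rising list genes 8 differed between acetate and ethanol, beside 25.7% of the shared response and 3.73% of all tested genes. The remaining members were Ifih1, Ifit3, Ifit3b, Cmpk2, Ifit1bl2 and Irgm1, and reads of Ifit3, Ifit3b, Ifit1 and Ifit1bl2 may be shared between copies. The list count was 35 without acetate replicate 2 and 32 with the GC trend removed. It was 1, 4 and 1 without control replicate 1, 2 and 3, and 6, 4 and 6 without ethanol replicate 1, 2 and 3.

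**Figure D3:**
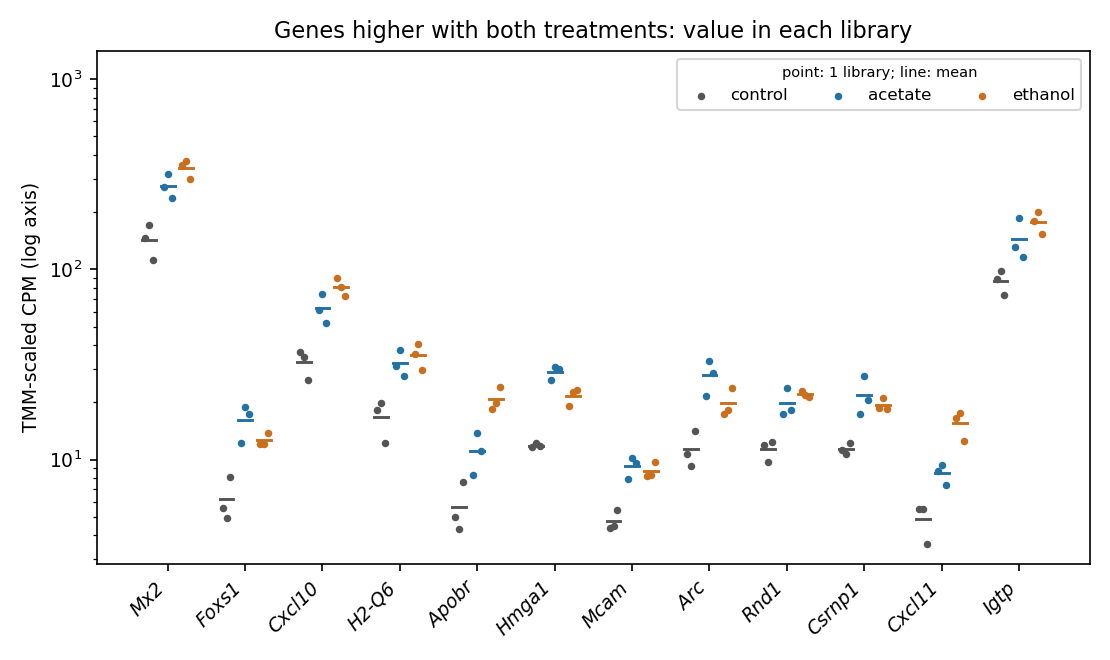
TMM-scaled CPM on a log axis in each of the 9 libraries for the 12 rising genes with the largest smaller fold change of the 2 treatments, taken from shared genes that averaged 5 CPM or more and whose treated and control libraries were separate. Each point is 1 library, in grey for control, blue for acetate and orange for ethanol, with a line at the group mean; by that choice the treated points lie above the control points, and what the plot adds is the distance between acetate and ethanol.

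Other immune genes rose outside that list. H2-Q6, a non-classical class I histocompatibility gene, went from 18.2, 19.95 and 12.3 CPM in control to 30.9, 37.8 and 27.5 with acetate and 35.9, 40.5 and 29.7 with ethanol (0.98 ± 0.17, adjusted p = 0.028). It was the only one of 18 tested genes of class I presentation in the shared response, beside 0.653% of all tested genes that rose. Reads from its near-identical H2-Q neighbours cannot be told apart here. Irgm2, Rnf213, Ifi207, Trim21, Cd274 and Apobec1, chosen after their values were seen, rose by 0.89, 0.86, 0.85, 0.76, 0.82 and 0.94. Markers of macrophages summed to 4.15 to 6.02 CPM in every library, with Tyrobp at 0 and Ptprc, Itgam and Adgre1 near 0.

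Of 23 tested NF-kB and inflammation genes 4 rose and none fell (median 0.43), where 0.653% of all tested genes rose. Csf1, which codes for the growth factor of macrophages and osteoclasts, stood at 88.6, 91.2 and 94.3 CPM in control, 146, 211 and 179 with acetate and 136, 135 and 144 with ethanol (0.77 ± 0.12, adjusted p = 0.016). Lif, a cytokine gene of the interleukin-6 family, went from 1.15, 1.22 and 1.75 CPM to 2.39, 3.90 and 4.06 and 2.72, 3.27 and 3.46 (0.85 ± 0.15, adjusted p = 0.03). Ccl2, the gene of a monocyte chemokine, read 4.26, 3.96 and 3.73 CPM in control, 6.58, 5.61 and 7.42 with acetate and 11.4, 10.1 and 10.5 with ethanol (0.91 ± 0.11, adjusted p = 0.0054). Ethanol raised Ccl2 further than acetate (difference -0.64, 95% interval -0.91 to -0.36). Nfkbie, an inhibitor of NF-kB that NF-kB itself induces, rose by 0.74 ± 0.13. All 4 genes had their treated libraries above control, where 4.67% of all tested genes did, and the choice by the pooled contrast favours that. The list gave 13 rises and 1 fall without acetate replicate 2, 0, 1 and 1 rises without control replicate 1, 2 and 3, and 2, 1 and 1 without ethanol replicate 1, 2 and 3.

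Hmga1, a chromatin protein gene of growing and embryonic cells, was 1 of the 4 rises that passed in every fit without 1 library. It stood at 11.6, 12.2 and 11.7 CPM in control, 26.1, 30.6 and 29.8 with acetate and 19.1, 22.6 and 23.2 with ethanol (1.01 ± 0.10, adjusted p = 0.0032), and Hmga1b is a near-identical copy that may share its reads. Arc, an immediate early gene best known from neurons, went from 10.7, 9.25 and 14.2 CPM to 21.6, 32.96 and 28.6 with acetate and 17.3, 18.3 and 23.9 with ethanol (0.98 ± 0.18, adjusted p = 0.029). Atf3, a stress-induced transcription factor gene, was the second of 30 immediate early genes in the shared response (0.55 ± 0.11), where 0.653% of all tested genes rose. Fos (0.35), Jun (0.37) and Egr1 (1.16) did not pass. The count of 2 became 8 without acetate replicate 1 and 11 without acetate replicate 2, and it was 0 without any 1 of the other 7 libraries.

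Several further rises were named by size. Foxs1, a forkhead factor gene of pericytes, stood at 5.58, 4.94 and 8.10 CPM in control, 12.2, 18.97 and 17.4 with acetate and 12.03, 12.1 and 13.8 with ethanol (1.10 ± 0.17, adjusted p = 0.016). Apobr, a receptor gene for apolipoprotein B48, went from 4.97, 4.33 and 7.66 CPM to 8.28, 13.9 and 11.2 with acetate and 18.6, 19.9 and 24.2 with ethanol (1.31 ± 0.19). Its ethanol libraries all exceeded its acetate libraries, yet the difference missed the threshold (adjusted p = 0.067, -0.87, 95% interval -1.37 to -0.37). Mcam, an adhesion molecule gene of perivascular cells, rose by 0.79 ± 0.12, Rnd1 by 0.83 ± 0.13 and the nuclear factor gene Csrnp1 by 0.79 ± 0.14. The growth arrest genes Gadd45a and Gadd45g (0.67 and 0.79) and the stress kinase gene Plk2 (0.79) were also among the rises, and are named after their values were seen.

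**Figure D4:**
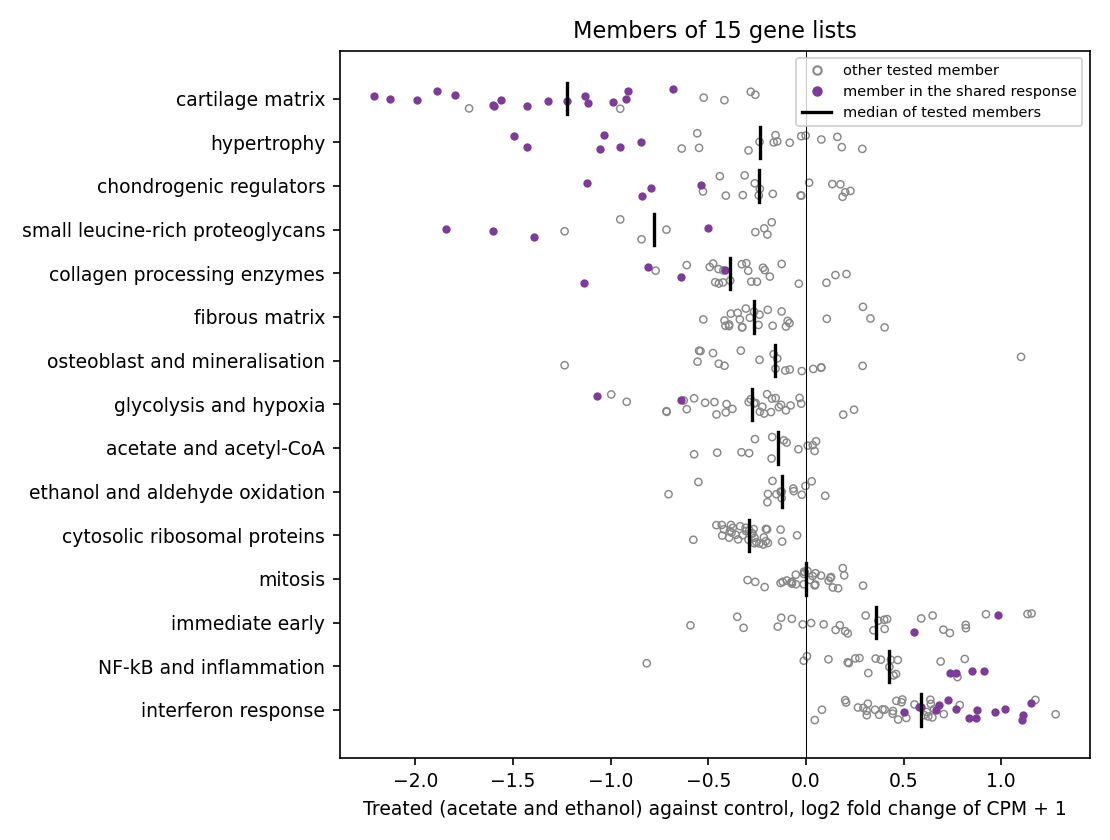
Pooled log2 fold change of treated against control (x axis) for each tested gene of 15 lists, with filled points for genes of the shared response, open points for the other tested members and a bar at the median. The medians run from -1.22 for cartilage matrix to 0.59 for interferon response, and the metabolic lists hold no filled point other than 2 in glycolysis and hypoxia.

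Genes that handle the added compounds themselves gave no member of the shared response, which held 1.79% of all tested genes, so that 0 in lists of this size is near the background. None of 14 tested genes for the use of acetate and acetyl-CoA (median -0.14) and none of 15 for the oxidation of ethanol and aldehydes (median -0.12) passed in limma in either direction, and 2 of each list had an unadjusted p under 0.05. Acss2, which makes acetyl-CoA from acetate, read 32.4, 26.8 and 27.1 CPM in control, 29.5, 28.2 and 17.7 with acetate and 20.03, 18.3 and 14.3 with ethanol (-0.45 ± 0.18, adjusted p = 0.26). Aldh2, the mitochondrial aldehyde dehydrogenase gene, had -0.17 ± 0.19 (adjusted p = 0.7) and Adh5, an alcohol dehydrogenase gene present in most cells, -0.06 ± 0.11 (adjusted p = 0.81). None of 31 genes of histone acetylation, 34 of cholesterol and fatty acid synthesis, 29 of the ATF4 response, 27 chaperones of the endoplasmic reticulum, 34 cytosolic ribosomal proteins, 36 of the respiratory chain, 32 of DNA replication and 30 of mitosis passed. At an unadjusted p under 0.05 these lists held 2, 4, 12, 12, 4, 1, 6 and 0 genes, where 15.8% of all tested genes had such a p. The ATF4, chaperone and DNA replication lists lay above that share, with medians of 0.26, -0.31 and 0.10. The ribosomal list had a median of -0.06 with acetate and -0.49 with ethanol. A p that misses the threshold does not show that these genes were unchanged: in simulated data of this size 67% of planted changes of 1 on the log2 scale and 20% of those of 0.5 were recovered. Changes were planted only in genes of higher control level, with independent normal errors. Neither the GC trend nor deviations common to libraries of the same number were simulated, so recovery in the real data may differ.

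Signalling lists outside BMP held from 0 to 2 members of the shared response each, beside the 1.79% of all tested genes. In the Wnt list 1 of 31 tested genes rose, the Wnt inhibitor gene Apcdd1 (0.56), and 1 fell, Frzb (-1.24), which codes for a secreted Wnt antagonist of cartilage. Frzb stood at 379.9, 348 and 380.0 CPM in control, 234, 127 and 204 with acetate and 146, 117 and 138 with ethanol, with no overlap. In the list of FGF and MAPK feedback Etv4, a target factor of FGF signals, rose (1.08, with acetate replicate 1 inside the control range) and Fgfr3 fell, among 20 tested. Igfbp7, a binding protein of the IGF list, fell (-0.35 with acetate and -0.97 with ethanol, 1 of 16 tested), as did the semaphorin genes Sema3e and Sema3b (-0.88 and -1.02, 2 of 21). The semaphorin count was 0, 0 and 1 without control replicate 1, 2 and 3. Of glycolysis and hypoxia genes 2 of 34 fell, the aldolase gene Aldoc (-1.07) and P4ha1. That count became 4 when acetate replicate 1 was left out, 8 for acetate replicate 2 and 1 for ethanol replicate 1, and it was 0 without any 1 of the other 6 libraries. At an unadjusted limma p under 0.05 the Wnt list held 7 of 31 genes and the FGF list 11 of 20. The IGF list held 8 of 16, the semaphorin list 6 of 21 and the glycolysis list 15 of 34. Each lay above the 15.8% of all tested genes. No gene of 23 in the TGF-beta list, 22 contractile genes and 18 clock genes passed, where 3, 8 and 8 had an unadjusted p under 0.05. The contractile and clock lists lay above the share of 15.8%, with medians of 0.23 and 0.16, and the TGF-beta list did not.

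Markers of the labelled cell type were present in all 9 libraries and were lower with treatment. Most of their sum came from Col2a1 (3512 to 9958 CPM), while Matn3 (0.873 to 3.43 CPM) and Snorc (0.923 to 9.95 CPM) were low. The summed level of 7 chondrocyte markers was 9857 to 12890.5 CPM in control, 5112 to 5759 with acetate and 4666 to 5897 with ethanol. Of the 7, 6 fell in the shared response, where 1.13% of all tested genes fell. That count was 2, 4 and 3 without control replicate 1, 2 and 3. Sums stayed low for endothelial (3.30 to 7.01 CPM), muscle (1.29 to 2.73 CPM, with Myod1, Myog and Myf5 at 0), epithelial (1.23 to 2.86 CPM) and hepatocyte markers (1.08 to 1.67 CPM). Adipocyte markers summed to 14.9 to 25.3 CPM, nearly all of it Pparg, and neuronal markers to 79.6 to 108 CPM, from Tubb3 and Map2.

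Acetate was then set against ethanol directly, to ask whether the shared genes moved to the same extent. This comparison is independent of the pooled difference, apart from the variance estimate that both use. It is not independent of the same-sign rule, which left out 2 of the 232 genes that passed the pooled test. Of the 230 genes 59 (25.7%) differed at an adjusted p under 0.05, where 3.73% of all tested genes did. Ethanol had moved the gene further in 50 of these 59 and acetate in 9. The 95% intervals of the shared genes had a median width of 0.66 on the log2 scale, against 0.71 over all tested genes. In the fits without 1 library the number that differed was 50, 281 and 42 of 415, 1312 and 130 shared genes without acetate replicate 1, 2 and 3. It was 7, 14 and 12 of 16, 55 and 43 without control replicate 1, 2 and 3, and 20, 11 and 21 of 118, 69 and 95 without ethanol replicate 1, 2 and 3. For 171 genes the difference missed the threshold, and the interval lay within 0.5 of equality on the log2 scale for 65 of the 230 and within 1 for 169.

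Matrix genes were on both sides of equality. Col2a1 (0.12), Acan (0.01), Mmp13 (0.00) and Sox9 (-0.07) had differences near 0, with intervals that reached no further than 0.5 in either direction. Col10a1 and Col9a1 were somewhat lower with acetate (differences -0.46, 95% interval -0.79 to -0.12 and -0.47, 95% interval -0.90 to -0.03) and missed the threshold. Lum (1.82, 95% interval 0.99 to 2.66), F13a1 (1.84, 95% interval 1.52 to 2.17), P4ha1 (0.85, 95% interval 0.51 to 1.19) and Ihh (0.92, 95% interval 0.62 to 1.22) fell further with ethanol. Gjc3, a connexin gene that was chosen after its values were seen, fell further with acetate (-2.13 against -0.79). Among the rises, Ccnd2, the cyclin D2 gene, and Chrm4, a muscarinic receptor gene, were the 2 that rose further with acetate among those that differed at an adjusted p under 0.05 (0.82 against 0.28 and 1.20 against 0.14).

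**Figure D5:**
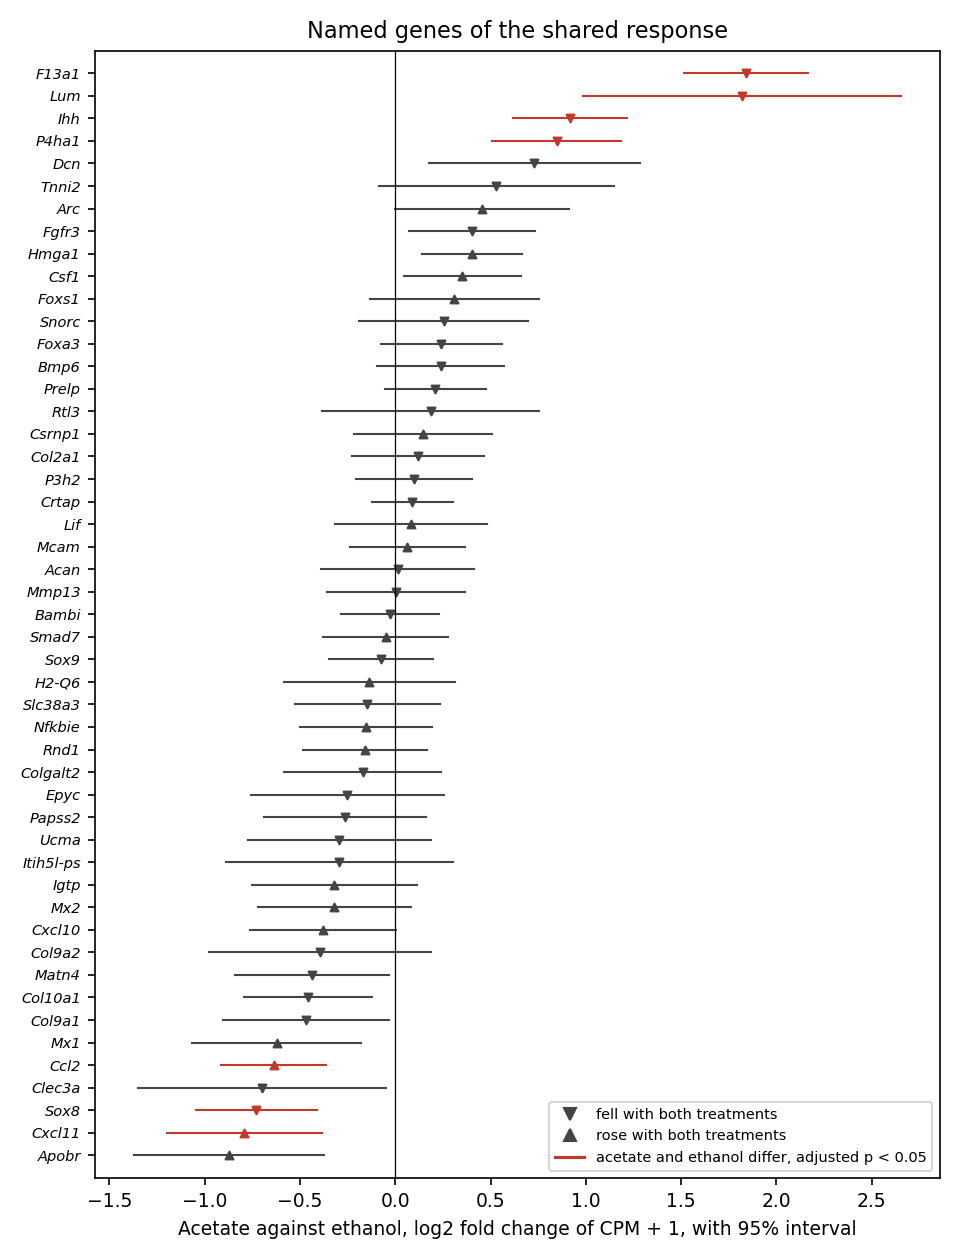
Difference between acetate and ethanol in log2(CPM + 1), with its 95% interval, for the 49 genes of the shared response that the rule named. Downward triangles mark genes below and upward triangles genes above control in the pooled fold change; values right of 0 are higher with acetate, and the 7 red genes (F13a1, Lum, Ihh, P4ha1, Ccl2, Sox8 and Cxcl11) differed at an adjusted p under 0.05.

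Tested singly against control, 62 of the 230 genes passed with both treatments (0.482% of all tested genes), 22 with acetate alone, 133 with ethanol alone and 13 with neither. These counts are read beside 129 genes that passed with acetate (1%) and 506 with ethanol (3.93%, of which 2.45% lower) over all tested genes, and both comparisons share the 3 control libraries. In 18 of the 230 genes one treatment moved the gene by less than 0.25 on the log2 scale, so that their place in the shared response rests on the other treatment. Wwox, an oxidoreductase-domain gene (-0.07 with acetate, -1.40 with ethanol), Adamts1, an aggrecan-cleaving protease gene (-0.01 and -0.97), and Ncmap, a myelin-associated protein gene (-1.30 and -0.18), are examples, chosen after their values were seen.

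At the edge of the threshold, the last genes inside were Lsp1 (-0.82, adjusted p = 0.0486), AI467606 (-0.48, 0.0490) and Irf9 (0.50, 0.0499). The first outside were Sgms2 (-0.75, adjusted p = 0.0508) and the copies Gm3448 and Gm3417, which have identical values (0.55, 0.0508).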

How the data were processed

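RNA from 9 ATDC5 libraries was sequenced with a stranded mRNA kit, per the labels. Values for 26202 genes were deposited by the authors as log2 of what the file name calls TMM-normalised counts. The submitters' processing notes name the build mm10, STAR 2.7.8a, Bowtie2 2.2.5 and Partek, without role or order, and annotation and counting step are not given in the sources used here. After exponentiation the constant floor of each library was subtracted to give CPM. From the floor, taken as an offset of 1e-05 read, 28.7 to 41.9 M reads per library were recovered. Between 85.6% and 87.2% of values up to 20 reads were whole within 0.02 read, so the values were not treated as counts.

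The 12868 genes whose mean reached 1 CPM were fitted as log2(CPM + 1) with limma 3.58.1 in R 4.3.3: 1 mean per group, 1 variance per gene over all 9 libraries, a mean trend, two-sided tests and Benjamini-Hochberg adjustment over all tested genes at 0.05. The pooled contrast was the mean of acetate and ethanol minus control. Members and lists were chosen with earlier results of these data known, and lists were counted without a test. The text names, among shared genes averaging 5 CPM or more whose treated and control libraries did not overlap, the 12 rises and 12 falls largest in the lesser treatment. It adds up to 4 members of each list with at least 3 in the shared response, and the fixed genes Acan, Acss2, Adh5, Aldh2, Alpl, Col2a1, Col10a1, Runx2 and Sox9. GC content and gene positions came from GENCODE M21 on GRCm38, the assembly of mm10 (24922 symbols matched, 415 through a synonym, 865 not). Promoters were RefSeq's on GRCm38.p6. In simulated data with independent normal errors and 200 changed genes among 12868, 7 other genes were called. Tables and figures used Python 3.11.15, pandas 2.3.3 and matplotlib 3.10.9.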

Additional observations from a re-analysis of the deposited data

Results flagged for a closer look

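Clec3a in acetate replicate 2, at 1.13 CPM, lay far from the other 5 treated libraries: on the log2(CPM + 1) scale its gap to the nearest was 0.682 of their range, above Dixon's critical value for 6 samples. This test was run on the treated libraries of 54 genes, and chance gives about 1 such result in 20.

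Acetate and ethanol differed in extent at an adjusted p under 0.05 (limma, Benjamini-Hochberg) in 7 of the 49 named genes of the shared response. In the whole shared response 25.7% of the genes differed, and 3.73% of all tested genes did. The difference, acetate minus ethanol on the log2 scale, was 1.84 for F13a1 (adjusted p = 0.0011), 1.82 for Lum (0.03), 0.92 for Ihh (0.008) and 0.85 for P4ha1 (0.016), which fell further with ethanol. It was -0.73 for Sox8 (0.024), which fell further with acetate. It was -0.79 for Cxcl11 (0.046) and -0.64 for Ccl2 (0.022), which rose further with ethanol.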

How the results depend on the processing

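The pooled test gave 232 genes and a shared response of 230, 84 higher and 146 lower. The pooled sign of these genes held in every alternative run (with the filter at 5 CPM, of the 167 still tested), which their choice by the same contrast makes likely. The counts stayed within 1.5 times with median-of-ratios scaling, quantile scaling, pseudocount 0.1, no filter and no mean trend. They moved further in these settings, given as genes past the pooled test, shared genes, higher and lower. With 1 mean for all 6 treated libraries they were 55, 55, 11 and 44, and with a filter at a mean of 5 CPM 137, 137, 50 and 87. After removal of the GC trend per library they were 1212, 1180, 575 and 605, and, in an alternative chosen after seeing the data, with that and without acetate replicate 2, 1619, 1571, 779 and 792. With 1 library left out they ran from 16 to 1354, 16 to 1312, 4 to 692 and 12 to 620, lowest without control replicate 1 and highest without acetate replicate 2. Why the counts differ was not tested. The split into higher and lower genes was thus near even in the settings with the most genes and mostly lower in those with the fewest.

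Replicate numbers were not taken as pairs, because not every pair of libraries with the same number deviated together. The deviations correlated over genes at 0.25, -0.10 and 0.41 between control and acetate for numbers 1, 2 and 3, at 0.55, 0.36 and 0.67 between control and ethanol, and at 0.15, 0.25 and 0.61 between acetate and ethanol. The pair below 0 holds acetate replicate 2. A replicate block gave 566, 558, 277 and 281 genes. With it 25 of 47 interferon, 11 of 30 immediate early, 7 of 23 NF-kB and 7 of 20 FGF and MAPK feedback genes rose. In the same fit 9 of 34 glycolysis, 7 of 27 collagen processing and 5 of 27 sugar-chain genes fell. Over all 12868 tested genes 277 rose and 281 fell with the block. The lists of ribosomal proteins, the respiratory chain, DNA replication and mitosis gave 0 genes, and 2 of 25 fibrous matrix genes fell. With the block and the GC correction limma gave 3612, 3428, 1663 and 1765. With the block and without acetate replicate 2 it gave 5162, 4842, 2479 and 2363. All 49 named genes of the shared response passed in these 3 fits. In the last of them limma's prior degrees of freedom were infinite, beside 3 residual ones. Each gene's variance then came from the mean trend alone, so little is read from the counts of that fit.

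Acetate against ethanol, 480 genes passed, with 1440 after the GC correction, 1108 without acetate replicate 2, 823 with the block, 307 at 5 CPM and 103 to 1108 with 1 library left out. Within the shared response 59 passed, 280 after the GC correction and 145 with the block. Of the 49 named genes 26 passed with 1 mean for all treated libraries, 47 after the GC correction, 43 with quantile scaling and 37 with no filter. Genes with low levels are limited by depth, since 1 read is worth up to 0.0348 CPM.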

Other observations

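Genes outside the lists, all chosen after their values were seen, filled out both directions. Trpv4, which codes for an ion channel that senses load in chondrocytes, stood at 225, 189 and 246 CPM in control, 125, 158 and 120.1 with acetate and 123, 117 and 125 with ethanol (-0.78 ± 0.12, limma adjusted p = 0.018). All 6 treated libraries lay under control. Ptgs1, Ptgis and Hpgd, which code for a cyclooxygenase, prostacyclin synthase and a prostaglandin-degrading enzyme, fell, and other genes of that pathway were not counted (-0.50, -0.78 and -1.31). For Ptgis the treatments differed (acetate -0.30, ethanol -1.25, adjusted p of the difference 0.0063). Grb10, an imprinted adaptor gene that restrains insulin signals, fell with both (-1.30 and -1.09), as did Apln, the gene of the peptide apelin (-0.49 and -0.66). Penk, the gene of the enkephalin precursor, fell from 167, 155 and 177 CPM to 111, 125 and 123 with acetate and 55.2, 34.9 and 54.8 with ethanol, and the acetate libraries lay between the other groups.

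Among the rises, Notch1, which codes for a receptor of cell-to-cell signals, went from 11.5, 12.4 and 11.9 CPM to 18.98, 25.5 and 17.6 with acetate and 17.6, 19.5 and 18.9 with ethanol (0.67 ± 0.12, limma adjusted p = 0.032), without overlap. Lrig1, a gene that curbs EGF receptors, rose by 0.56 and the homeobox gene Hoxb9 by 0.49. Mcm10, a replication factor gene, rose by 0.46, and none of the 32 genes of the DNA replication list passed in limma (6 had an unadjusted p under 0.05).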
